A study of Mus musculus with 10 samples.

Results

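The comparison described here is between livers of mice given a high-fat diet (HFD) and livers of mice given chow, all regrowing after partial hepatectomy (PHx), the surgical removal of part of the liver. Its members were the 15792 genes with at least 10 counts in 3 or more of the 6 libraries, out of 55487 gene identifiers counted. The mice were C57BL/6J males of 8 weeks, and they carried no altered allele that the labels name. One group ate the HFD (Research diet, #12492i) for 7 days and the other stayed on chow for the same time. Both groups then had PHx, and whole liver was taken 40 hours later. There were 3 HFD and 3 chow libraries, and the design text describes 3 individuals per group. The study as a whole asked how lipid reaching the liver bears on its regrowth, and the diet comparison asked how lipid loading before surgery changes the transcripts of the remnant.

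After PHx the remaining hepatocytes, which rarely divide in adult liver, leave quiescence, copy their DNA and then pass through mitosis, while the liver goes on making bile, plasma proteins and urea. Genes for DNA synthesis are switched on at the border of G1 and S phase, mainly through E2F factors. Genes for mitosis come on later, in G2, through FOXM1, B-MYB and the LIN54-containing complexes that bind a promoter element called the CHR, often beside CCAAT boxes bound by NF-Y. Fat accumulates for a while in the remnant of a normally fed animal and is one of its fuels.

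The libraries held 31912664 to 39910561 counts, with each HFD library below each chow library. Levels are given as CPM, counts scaled to library size. With 0 counts a gene could still stand at up to 0.0770 to 0.0922 CPM, by counting error alone. The tissue label fitted the markers: the 10 hepatocyte markers summed to 74100 to 100000 CPM in the chow group and to 80000 to 87400 CPM in the HFD group. The chow livers were less alike than the HFD livers. Principal component 1 (39.5% of the variance) placed chow 1, 2 and 3 at -11.8, -38.3 and -61.5, and all HFD livers between 35.2 and 38.6. Within groups the SD of log2 CPM had a median over genes of 0.289 for chow and 0.198 for HFD livers. Albumin took 2.74% of the counts in chow 3 against 4.50% to 5.28% in the other 5 libraries. Xist, the transcript of the inactive X chromosome, was counted 9, 14 and 21 times in HFD 1, 2 and 3 and 0 times in chow. The Y-linked Ddx3y had 1912 to 2973 counts per library. Livers were measured in bulk, so fewer cells of a type and less RNA per cell cannot be told apart.

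The diet groups differed in 359 of the 15792 genes tested, which is 2.27%, by edgeR's quasi-likelihood test. A gene is said to be called where its Benjamini-Hochberg adjusted p was under 0.05. Called genes were more often higher than lower in HFD livers: 247 (1.56% of those tested) were higher and 112 (0.709%) lower. Libraries were scaled by TMM (trimmed mean of M values). Scaling by library size alone raised the median log2 fold change by 0.15 and gave 333 higher and 58 lower calls, so that the higher ones made up 85.2% in place of 68.8%. At least 2-fold differences made up 195 of the higher and 66 of the lower calls, and at least 8-fold differences 55 and 6. The 3 libraries of a group did not overlap those of the other in 21.8% of all genes tested and in all 359 called genes. Removal of 1 library changed the number of calls to between 73, without HFD 1, and 671, without chow 1. A core of 67 genes (0.424% of those tested) was called with all libraries and in each of the 6 fits that left 1 out; 59 of them were higher and 8 lower in HFD livers. Of those 59, 41 belonged to a list of cell cycle genes. The cell cycle lists held 351 of the 15792 genes tested and were written with results of these libraries known. The 71 lists used below hold 1704 genes, of which 1596 passed the filter and were tested. Over all genes, 47 passed the filter through the HFD libraries alone, with 3 of them called, and 84 through the chow libraries alone, with 6 called.

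**Figure D1:**
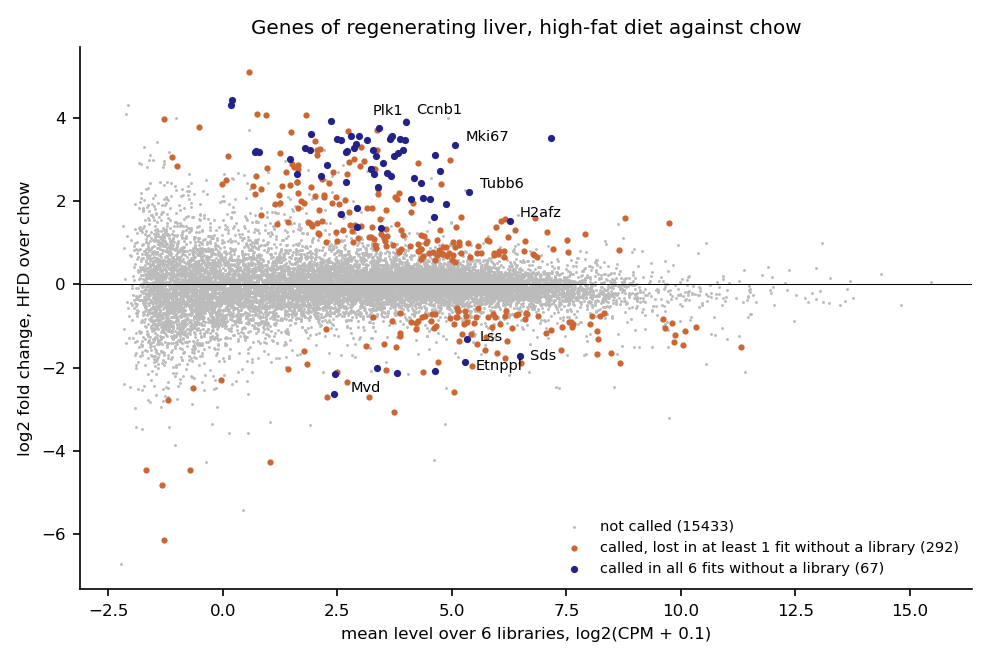
Each point is 1 of the 15792 genes tested, by its mean level over the 6 libraries (x axis, log2 of CPM + 0.1) and its log2 fold change, HFD over chow (y axis). Orange points are called genes that lost the call in at least 1 fit without a library. The 67 blue points were called in all 6 such fits, and 59 of these lie above 0.

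In HFD livers 87 of 166 genes for mitosis rose and 0 fell, beside 1.56% higher over all genes tested. They came from 8 lists that cover entry into mitosis, its kinases, chromosome compaction, the kinetochore, the checkpoint, the spindle, its motors and cytokinesis. The median log2 fold change was 1.99, beside -0.02 over all genes tested. Of the 166 genes 162 lay above 0, and in 139 the diet groups did not overlap (83.7%, beside 21.8%). Chow 3 was the lowest library for 107 of the 166. The number called was 93, 61 and 90 without chow 1, 2 and 3 and 39, 69 and 54 without HFD 1, 2 and 3. These lists were chosen with results of the same 6 libraries known, so their direction is not independent evidence.

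The cyclins that carry a cell into mitosis were among the genes with the largest differences. Ccnb1, the partner of CDK1 at mitotic entry (ENSMUSG00000041431, chr13:100778650-100786570), measured 6.98, 2.41 and 3.54 CPM in chow and 68.6, 52.4 and 73.1 CPM in HFD livers. Ccnb2, a second B-type cyclin (chr9:70407692-70421547), measured 5.31, 1.88 and 4.37 CPM in chow and 49.1, 40.5 and 47.4 CPM in HFD livers. Ccna2, which acts from S phase to early mitosis, measured 5.90, 4.55 and 3.75 CPM in chow and 44.6, 36.2 and 47.6 CPM in HFD livers. In all 3 the lowest HFD liver stood more than 5-fold above the highest chow liver, and the spread between HFD livers was small beside that step. The log2 fold changes were 3.90 ± 0.40 (SE, n = 3 per group), 3.57 ± 0.35 and 3.17 ± 0.20 (edgeR adjusted p = 0.00638, 0.00366 and 0.000425), and all 3 calls held without any 1 library. Cdc25b, the phosphatase that starts CDK1 activation, rose by 2.62 (edgeR adjusted p = 0.00422). Cdk1 itself, named after its values were seen, measured 11.5, 6.17 and 4.30 CPM in chow and 47.1, 42.5 and 77.0 CPM in HFD livers (log2 fold change 2.92 ± 0.41, edgeR adjusted p = 0.0207) and lost its call without chow 2 or HFD 1 (edgeR adjusted p = 0.0762 and 0.0656). The CDK1 inhibitory kinase Pkmyt1 measured 5.98, 6.02 and 2.06 CPM in chow and 14.2, 12.1 and 20.7 CPM in HFD livers and was not called (edgeR adjusted p = 0.0807), though it was without chow 3 (edgeR adjusted p = 0.0256). Of the 17 genes in this list 9 were called.

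The mitotic kinases and the chromosomal passenger complex, which corrects faulty attachments of chromosomes to the spindle, had 13 of 14 genes tested called, all higher and 8 of them in all 6 fits without a library. Plk1, the kinase that drives centrosome maturation and spindle assembly, measured 4.82, 1.86 and 2.21 CPM in chow and 47.5, 32.1 and 42.2 CPM in HFD livers. Aurka, the spindle pole kinase, measured 7.88, 8.53 and 5.81 CPM in chow and 44.4, 34.9 and 52.1 CPM in HFD livers. Tpx2, which activates that kinase on microtubules, measured 6.52, 4.76 and 3.01 CPM in chow and 53.3, 44.5 and 62.0 CPM in HFD livers. Chow 1 was the highest of the chow livers for Plk1 and Tpx2, and each HFD liver was well above it. The log2 fold changes were 3.77 ± 0.38, 2.56 ± 0.20 and 3.48 ± 0.28 (edgeR adjusted p = 0.00456, 0.000809 and 0.00101). Birc5 and Cdca8, the survivin and borealin subunits of the passenger complex, rose by 3.10 and 2.66 (edgeR adjusted p = 0.000492 and 0.000977). The member that was not called, the kinase Pbk, measured 3.67, 3.06 and 0.738 CPM in chow and 15.1, 14.3 and 25.6 CPM in HFD livers (edgeR adjusted p = 0.0559), and it was called without chow 3 (edgeR adjusted p = 0.00595).

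Genes for the machinery that moves and divides chromosomes followed. Hmmr, a spindle assembly factor, measured 5.41, 3.43 and 2.46 CPM in chow and 46.5, 36.2 and 49.8 CPM in HFD livers. Racgap1, which marks the place of the cleavage furrow, measured 6.36, 3.43 and 3.32 CPM in chow and 55.7, 39.1 and 55.3 CPM in HFD livers. Ect2, which it recruits to activate RhoA there, measured 5.59, 5.73 and 3.57 CPM in chow and 50.4, 42.8 and 47.1 CPM in HFD livers. All 3 genes stood several-fold above every chow liver in every HFD liver. Their log2 fold changes were 3.54 ± 0.29, 3.51 ± 0.29 and 3.23 ± 0.20 (edgeR adjusted p = 0.00101, 0.00101 and 0.000425), and all 3 held without any 1 library. Among spindle and microtubule-associated genes 19 of 28 were called, among mitotic kinesins 12 of 14, and among cytokinesis genes 13 of 18, all higher. The members of the cytokinesis list that were not called included Rhoa, Sept7 and Chmp4b, which have other uses in the cell, at log2 fold changes -0.05, 0.14 and -0.09 (edgeR adjusted p = 0.887, 0.650 and 0.876). Kif20a, a kinesin of the midzone, rose by 3.49, Kif18b by 3.63 and the spindle protein Aspm by 3.93 (edgeR adjusted p = 0.00409, 0.00191 and 0.00101).

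At the kinetochore, where the spindle grips the chromosome, 16 of 38 genes were called. Cenpa, the histone that marks the centromere, measured 14.4, 8.71 and 8.54 CPM in chow and 72.2, 57.6 and 81.0 CPM in HFD livers. Knl1, the scaffold for checkpoint proteins, measured 1.39, 0.916 and 0.953 CPM in chow and 8.19, 9.4 and 14.3 CPM in HFD livers. Both were called without any 1 library (log2 fold changes 2.73 ± 0.24 and 3.28 ± 0.30, edgeR adjusted p = 0.00101 and 0.00112). Hjurp, the chaperone that loads Cenpa, measured 245, 219 and 234 CPM in chow and 317, 294 and 436 CPM in HFD livers and did not pass (edgeR adjusted p = 0.158). That is a large part of the 487, 448 and 420 CPM to which all 38 genes summed in chow. The source of the reads counted for Hjurp was not tested. The spindle checkpoint and the anaphase-promoting complex (APC/C), which it holds back, had 7 of 26 genes called, 0 of them in every fit without a library; the number was 9, 5 and 7 without chow 1, 2 and 3 and 1, 6 and 4 without HFD 1, 2 and 3. Mad2l1, the checkpoint's inhibitor of the APC/C, measured 9.39, 6.54 and 4.03 CPM in chow and 26.8, 28.2 and 31.6 CPM in HFD livers. Ube2c, an E2 enzyme of the APC/C, measured 6.72, 2.46 and 3.75 CPM in chow and 60.0, 46.4 and 90.2 CPM in HFD livers. Both were higher in each HFD liver. Their log2 fold changes were 2.11 ± 0.28 and 3.92 ± 0.43 (edgeR adjusted p = 0.00814 and 0.00925). Mad2l1 lost its call without HFD 1 (edgeR adjusted p = 0.0527) and Ube2c without chow 3 (edgeR adjusted p = 0.0517). Cdc20, the activator of the APC/C, measured 16.9, 2.90 and 5.78 CPM in chow and 167, 107 and 141 CPM in HFD livers. Its chow livers spread widely and its test sat on the threshold (log2 fold change 4.01 ± 0.69, edgeR adjusted p = 0.050). It was called without chow 1 or chow 2 (edgeR adjusted p = 0.00101 and 0.0450). Core subunits had small fold changes, as Anapc1 and Anapc5 show, with log2 values of 0.38 and 0.14 (edgeR adjusted p = 0.153 and 0.720).

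Chromosome compaction and related genes included the proliferation marker Mki67, a surfactant that keeps mitotic chromosomes apart. It measured 15.6, 7.64 and 9.19 CPM in chow and 111, 94.6 and 125 CPM in HFD livers (log2 fold change 3.35 ± 0.28, edgeR adjusted p = 0.00101). The condensin subunits Smc4 and Ncapd2 rose by 1.94 and 2.07 (edgeR adjusted p = 0.00694 and 0.00456). Top2a, the topoisomerase that untangles sister chromatids, measured 16.5, 9.86 and 4.73 CPM in chow and 53.1, 40.6 and 90.4 CPM in HFD livers and was not called (log2 fold change 2.56 ± 0.52, edgeR adjusted p = 0.0699), but was without chow 1 (edgeR adjusted p = 0.0361). Of the 19 genes in this list 6 were called. The cohesin release factor Wapl had a log2 fold change of 0.15 (edgeR adjusted p = 0.614).

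**Figure D2:**
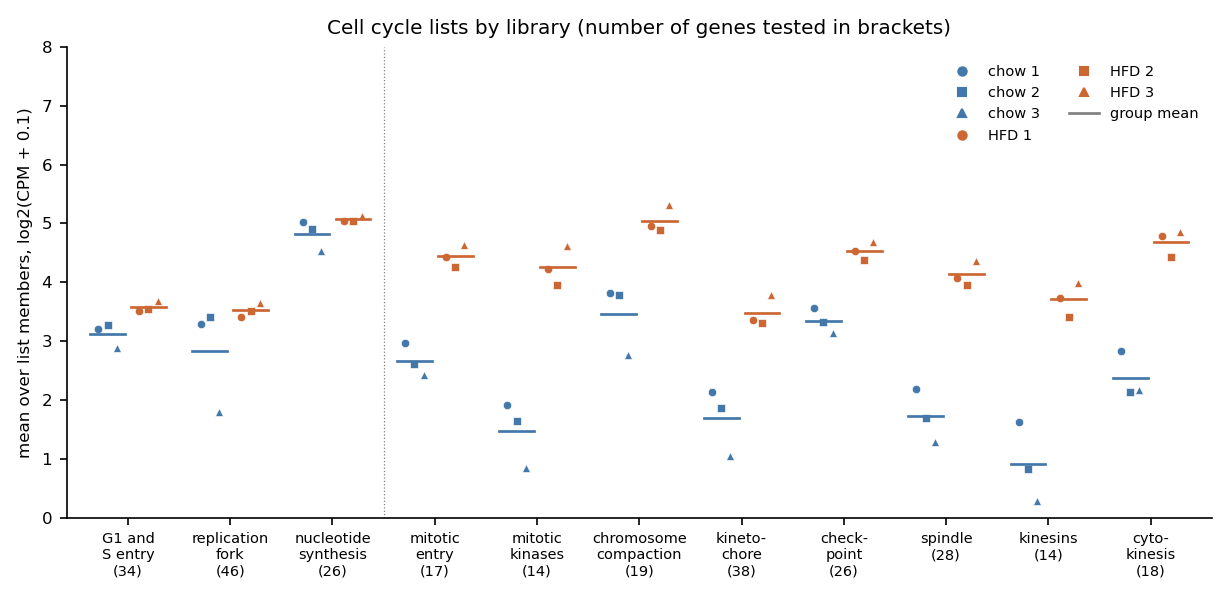
Mean level of each cell cycle list (y axis, mean over members of log2 of CPM + 0.1) in each of the 6 libraries; bars are group means and brackets give the genes tested. To the right of the dotted line every HFD liver lies above every chow liver, while the replication fork list has chow 1 and 2 at 3.29 and 3.41, chow 3 at 1.80 and HFD livers at 3.41 to 3.65.

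Promoters of the called cell cycle genes were searched for elements that are known from mitosis genes, as described above. Of the 101 cell cycle list genes called higher, 87 came from the mitosis lists. In the DNA synthesis lists 2 of 72 genes were called, so called and uncalled genes are also different kinds of genes. The shares below are therefore not independent evidence for any factor. The elements described here, searched on both strands, were the CHR core (TTTGAA or TTCGAA) and the CCAAT box. The RefSeq promoters of GRCm38.p6 run from 250 bases before the start to 50 after it. A sterol element and an E-box were searched too and are given below with the cholesterol and clock genes. RefSeq promoters were found for 86 of the 101 cell cycle list genes called higher and for 11117 genes tested; 77 and 8874 of these had a single promoter, so that the same length was searched in each. The CHR core was in 53 of the 77 (68.8%), in 34 of 160 cell cycle list genes that were not called (21.2%) and in 1263 of the 8874 (14.2%). The CCAAT box was in 66.2%, 55.0% and 39.0% of the same groups, and both elements together in 53.2%, 11.9% and 5.85%. The CCAAT box did not mark direction: it was in 60.6% of the 66 single-promoter genes called lower, where the CHR core was in 16.7% and both together in 7.58%. These shares were not tested. A match is only a match of letters, and a promoter without one says nothing of the factor.

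Windows from 110 bases before the start to 20 after it are printed for 4 called genes whose windows hold both elements and for Ccnb1, whose whole RefSeq promoter held the CCAAT box and no CHR core. Capitals mark the CHR core and CCAAT boxes on either strand; each is written 5′ to 3′ on the gene's own strand, from RefSeq on GRCm38.p6. The windows are Ccnb2 (chr9:70421535-70421664, minus strand), Hmmr (chr11:40733418-40733547, minus strand), Racgap1 (chr15:99651637-99651766, minus strand), Cdk1 (chr10:69352893-69353022, minus strand) and Ccnb1 (chr13:100786467-100786596, minus strand).
Ccnb2: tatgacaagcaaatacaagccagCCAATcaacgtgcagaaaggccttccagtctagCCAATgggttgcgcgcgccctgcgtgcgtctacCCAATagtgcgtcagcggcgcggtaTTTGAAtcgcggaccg
Hmmr: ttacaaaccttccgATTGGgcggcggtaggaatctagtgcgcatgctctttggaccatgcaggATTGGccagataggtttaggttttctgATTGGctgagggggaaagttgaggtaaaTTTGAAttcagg
Racgap1: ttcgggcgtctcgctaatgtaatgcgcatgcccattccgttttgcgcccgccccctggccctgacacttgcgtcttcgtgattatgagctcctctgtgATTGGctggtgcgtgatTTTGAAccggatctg
Cdk1: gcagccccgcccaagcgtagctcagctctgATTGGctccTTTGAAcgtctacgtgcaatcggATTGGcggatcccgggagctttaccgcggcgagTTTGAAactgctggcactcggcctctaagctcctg
Ccnb1: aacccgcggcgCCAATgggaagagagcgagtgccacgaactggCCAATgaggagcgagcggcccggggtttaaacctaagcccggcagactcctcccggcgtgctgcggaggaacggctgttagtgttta

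Genes for DNA synthesis did not follow those for mitosis. Over the replication and nucleotide synthesis lists 72 genes were tested and 2 were called (2.78%, beside 2.27% of all genes), with a median log2 fold change of 0.33. Of the 72 genes 56 lay above 0, and in 25 the groups did not overlap (34.7%, beside 21.8% of all genes). The number called was 4, 1 and 4 without chow 1, 2 and 3 and 1, 1 and 1 without HFD 1, 2 and 3. In the replication fork list the gap between the groups came mostly from 1 liver: 42 of its 46 genes had their lowest level in chow 3. The median log2 fold change of that list was 0.42 with all libraries and 0.14 without chow 3. Mcm5, a subunit of the replicative helicase named after its values were seen, measured 23.3, 37.9 and 4.64 CPM in chow and 35.3, 37.7 and 40.7 CPM in HFD livers (edgeR adjusted p = 0.664). Pcna, the sliding clamp of DNA polymerase, measured 53.8, 44.9 and 19.7 CPM in chow and 41.6, 52.4 and 65.7 CPM in HFD livers (log2 fold change 0.43 ± 0.36, edgeR adjusted p = 0.650), and its groups overlapped. The replication factor Mcm10 lay the other way, with 86.5, 46.5 and 35.6 CPM in chow and 31.5, 29.5 and 31.2 CPM in HFD livers (edgeR adjusted p = 0.231). The exception was Dbf4, the regulatory subunit of the kinase that fires replication origins, which measured 5.41, 5.86 and 2.86 CPM in chow and 25.6, 21.1 and 25.3 CPM in HFD livers and was called without any 1 library (log2 fold change 2.35 ± 0.26, edgeR adjusted p = 0.00341). Tyms, thymidylate synthase, rose by 1.3 ± 0.27 (edgeR adjusted p = 0.0489) and lost its call without chow 2, HFD 1, HFD 2 or HFD 3 (edgeR adjusted p up to 0.161).

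Regulators of G1 were mixed. Ccnd1, the D-type cyclin of the G1 phase, measured 42.9, 39.3 and 15.5 CPM in chow and 84.4, 39.5 and 43.5 CPM in HFD livers and did not pass (log2 fold change 0.78 ± 0.46, edgeR adjusted p = 0.499); HFD 1 was highest and chow 3 lowest. Foxm1, the factor that drives G2 and mitosis genes, measured 5.11, 3.85 and 1.78 CPM in chow and 31.4, 23.7 and 37.6 CPM in HFD livers and rose by 3.10 ± 0.37 (edgeR adjusted p = 0.00791) in all fits. The other 3 called members of this list of 34 were inhibitors of cyclin-dependent kinases, all higher, beside 1.56% higher over all genes tested. Cdkn1a, the p53-inducible inhibitor p21, measured 11.1, 16.3 and 9.35 CPM in chow and 56.4, 42.0 and 98.1 CPM in HFD livers (log2 fold change 2.42 ± 0.36, edgeR adjusted p = 0.0207) and lost its call without chow 1, chow 3 or HFD 1 (edgeR adjusted p up to 0.0716). Cdkn2c and Cdkn2d, inhibitors of the cyclin D kinases, rose by 1.97 and 1.05 (edgeR adjusted p = 0.0102 and 0.0474). Cdkn2c lost its call without HFD 1 (edgeR adjusted p = 0.0530) and Cdkn2d without chow 2, chow 3, HFD 1, HFD 2 or HFD 3 (edgeR adjusted p up to 0.196).

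Of 24 p53 targets 6 were called higher and 1 lower, beside 1.56% higher and 0.709% lower over all genes tested. The list's median log2 fold change was 0.57. Ckap2 and Gtse1, which are also mitotic genes, belong to the 6. Plk2, a kinase of centriole duplication that p53 induces, measured 6.67, 6.72 and 6.92 CPM in chow and 18.9, 15.3 and 18.0 CPM in HFD livers, with all HFD livers at more than 2-fold the highest chow liver (log2 fold change 1.36 ± 0.15, edgeR adjusted p = 0.00348). Its relative Plk3 went the other way, with 78.3, 81.5 and 91.9 CPM in chow and 37.1, 39.2 and 48.5 CPM in HFD livers (log2 fold change -1.01 ± 0.14, edgeR adjusted p = 0.00990), and lost its call without HFD 1 or HFD 2 (edgeR adjusted p = 0.0744 and 0.0606). Gtse1 lost its call without chow 2 or HFD 1 (edgeR adjusted p = 0.0642 and 0.0656). Ccng1, a p53-induced cyclin, measured 35.1, 36.5 and 26.0 CPM in chow and 48.6, 52.6 and 60.4 CPM in HFD livers (edgeR adjusted p = 0.0559). Bax, which starts cell death, measured 14.4, 10.5 and 12.8 CPM in chow and 21.5, 17.2 and 23.2 CPM in HFD livers (edgeR adjusted p = 0.0789). The number called in the p53 list was 9, 4 and 5 without chow 1, 2 and 3 and 2, 5 and 5 without HFD 1, 2 and 3.

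Tubulins, the subunits of microtubules, differed by isotype. Tubb6 measured 20.9, 16.5 and 20.5 CPM in chow and 98.5, 81.8 and 90.1 CPM in HFD livers, a step of 4-fold with little spread in either group (log2 fold change 2.22 ± 0.15, edgeR adjusted p = 0.000425), and was called in all fits. Tubb4b measured 193, 109 and 176 CPM in chow and 396, 329.5 and 388 CPM in HFD livers and rose by 1.22 (edgeR adjusted p = 0.0258); it lost its call without HFD 1, HFD 2 or HFD 3 (edgeR adjusted p up to 0.144). Tuba4a measured 257, 159 and 212 CPM in chow and 166, 174 and 153 CPM in HFD livers and was not called (edgeR adjusted p = 0.425). Of 15 tubulins 4 were called, all higher, beside 1.56% higher over all genes tested. The number was 5, 2 and 3 without chow 1, 2 and 3 and 1, 1 and 1 without HFD 1, 2 and 3. Replication-dependent histones, whose transcripts normally lack the poly(A) tail used for selection, gave 0 calls of 15 by edgeR, 1 by DESeq2 and 0 by limma-voom, with 4 at an unadjusted p under 0.05.

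Hepatocytes make cholesterol through the mevalonate pathway under SREBP2, which is switched off when the membrane holds enough sterol. Of 28 genes of the pathway and its control 9 fell and 0 rose, beside 0.709% lower over all genes tested. The list's median log2 fold change was -1.02. Scaling by library size alone left 4 calls, whereas DESeq2 called 18. Along the pathway, Mvd, which makes isopentenyl diphosphate (chr8:122433601-122443422), measured 36.1, 24.1 and 28.0 CPM in chow and 8.63, 5.29 and 6.09 CPM in HFD livers. Fdps, which makes farnesyl diphosphate, measured 20.8, 9.42 and 8.52 CPM in chow and 2.84, 1.48 and 1.57 CPM in HFD livers. Lss, which closes the sterol ring system, measured 66.0, 69.1 and 54.8 CPM in chow and 30.6, 21.2 and 24.8 CPM in HFD livers. HFD 2 was the lowest library for 19 of the 28 genes, and for these 3 genes the groups stood apart. The log2 fold changes were -2.14 ± 0.23, -2.71 ± 0.42 and -1.31 ± 0.17 (edgeR adjusted p = 0.00223, 0.0172 and 0.00638). Mvd and Lss were called in all fits and Fdps was not without HFD 1, HFD 2 or HFD 3 (edgeR adjusted p up to 0.0990). Mvk and Pmvk, the kinases just before Mvd, Sqle, which acts just before Lss, and the sterol sensor Insig1 were called lower too, with log2 fold changes of -0.99, -0.92, -1.95 and -1.58. These 4 were named after their values were seen, and each lost its call without chow 2, HFD 1, HFD 2 or HFD 3 (edgeR adjusted p up to 0.148). The number called in the list was 9, 3 and 18 without chow 1, 2 and 3 and 3, 2 and 2 without HFD 1, 2 and 3. The sterol element core CACCCCAC was searched on both strands of the RefSeq promoters. It was in 0 of 5 called genes of this list and in 2 of 15 that were not called (13.3%). Among all genes tested with a promoter it was in 427 of 11117 (3.84%). These shares were not tested.

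Of 27 genes for bile acid synthesis, transport and control 1 was called higher and 3 lower, with 0 called without HFD 1. Over all genes tested 1.56% were called higher and 0.709% lower. Cyp7a1, the rate-limiting enzyme of synthesis, measured 199.7, 200.3 and 140.2 CPM in chow and 43.6, 35.0 and 67.3 CPM in HFD livers (log2 fold change -1.89 ± 0.26, edgeR adjusted p = 0.00991), and lost its call without HFD 1 (edgeR adjusted p = 0.0757). Osgin1, an oxidative stress response gene that the same list holds as a target of the bile acid receptor, measured 302, 201 and 259.9 CPM in chow and 894, 856 and 577 CPM in HFD livers. Each HFD liver stood above each chow liver (log2 fold change 1.61 ± 0.23, edgeR adjusted p = 0.00979). It lost its call without HFD 1 (edgeR adjusted p = 0.0656). Nr1h4, the bile acid receptor, was lower, at a log2 fold change of -0.68 ± 0.14 (edgeR adjusted p = 0.0383) and lost its call without chow 2, HFD 1, HFD 2 or HFD 3 (edgeR adjusted p up to 0.197). The third lower call was the transporter Slco1a4, at a log2 fold change of -2.59 (edgeR adjusted p = 0.0240), which lost its call without chow 2, HFD 1 or HFD 3 (edgeR adjusted p up to 0.105).

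Of 46 genes for the breakdown of amino acids 13 fell and 0 rose, beside 0.709% lower over all genes tested; 1 of the 13 was called in every fit without a library. The list's median log2 fold change was -0.55. The 46 genes summed to 29500, 31100 and 34100 CPM in the chow livers and to 14500, 17400 and 15500 CPM in the HFD livers. Scaling by library size alone left 9 calls over this list and the urea cycle, in place of 16. Gnmt, which disposes of excess methyl groups by making sarcosine, measured 1679, 1245 and 1545 CPM in chow and 522, 679 and 524 CPM in HFD livers. Bhmt, which remethylates homocysteine with betaine, measured 6472, 3120.4 and 3594 CPM in chow and 1655, 1557 and 1439 CPM in HFD livers. Cth, which makes cysteine from cystathionine, measured 689, 447 and 439 CPM in chow and 140.0, 212 and 144 CPM in HFD livers. Each HFD liver lay below each chow liver in all 3. The log2 fold changes were -1.37 ± 0.20, -1.5 ± 0.28 and -1.67 ± 0.24 (edgeR adjusted p = 0.00990, 0.0307 and 0.0105). Ahcy, which hydrolyses S-adenosylhomocysteine, Bhmt2, Dmgdh, which takes the next methyl group from dimethylglycine, and Cdo1, which oxidises cysteine, were called lower as well, with log2 fold changes of -1.13, -0.95, -0.76 and -0.94. Bhmt, Ahcy, Dmgdh and Cdo1 were named after their values were seen. Gnmt lost its call without HFD 1 or HFD 3 (edgeR adjusted p = 0.0908 and 0.0692) and Bhmt without HFD 1, HFD 2 or HFD 3 (edgeR adjusted p up to 0.160). So did Cth without HFD 1 or HFD 3 (edgeR adjusted p = 0.0902 and 0.0692) and Bhmt2 without HFD 1, HFD 2 or HFD 3 (edgeR adjusted p up to 0.0674). Ahcy, Dmgdh and Cdo1 lost theirs without chow 2, HFD 1, HFD 2 or HFD 3, and Cdo1 also without chow 3, up to an edgeR adjusted p of 0.218. Mat1a, which makes the methyl donor S-adenosylmethionine, measured 2329, 7359 and 8575 CPM in chow and 988, 1542 and 1711 CPM in HFD livers and was not called (log2 fold change -2.11 ± 0.47, edgeR adjusted p = 0.0739) except without chow 1 (edgeR adjusted p = 0.00150).

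Other amino acid genes lay the same way, as did Etnppl, which is in neither the amino acid nor the urea cycle list. Sds, serine dehydratase of the periportal liver, measured 162, 138 and 193 CPM in chow and 45.2, 62.8 and 41.9 CPM in HFD livers and was called in all fits (log2 fold change -1.72 ± 0.20, edgeR adjusted p = 0.00371). Etnppl, which breaks down phosphoethanolamine and is among the stable lower genes, measured 92.9, 70.3 and 61.7 CPM in chow and 20.8, 21.4 and 19.5 CPM in HFD livers (log2 fold change -1.86 ± 0.17, edgeR adjusted p = 0.00101). Prodh, proline dehydrogenase, measured 247, 248 and 237 CPM in chow and 106, 131 and 122 CPM in HFD livers (log2 fold change -1.03 ± 0.14, edgeR adjusted p = 0.00789) and lost its call without HFD 1 (edgeR adjusted p = 0.0679). In all 3 genes each HFD liver lay below each chow liver, and the chow livers were closest together for Prodh. In the urea cycle 3 of 15 genes were called lower, the last enzymes Asl and Arg1 among them (-1.89 and -1.21; edgeR adjusted p = 0.00791 and 0.0106). Asl lost its call without HFD 1 (edgeR adjusted p = 0.0715) and Arg1 without HFD 1, HFD 2 or HFD 3 (edgeR adjusted p up to 0.090). The first enzyme, Cps1, measured 4409, 3519.8 and 3673 CPM in chow and 1652, 2197 and 1071 CPM in HFD livers and did not pass (edgeR adjusted p = 0.0535). Over both lists the number called, 16 of 61 genes, was 19, 8 and 13 without chow 1, 2 and 3 and 1, 5 and 3 without HFD 1, 2 and 3.

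**Figure D3:**
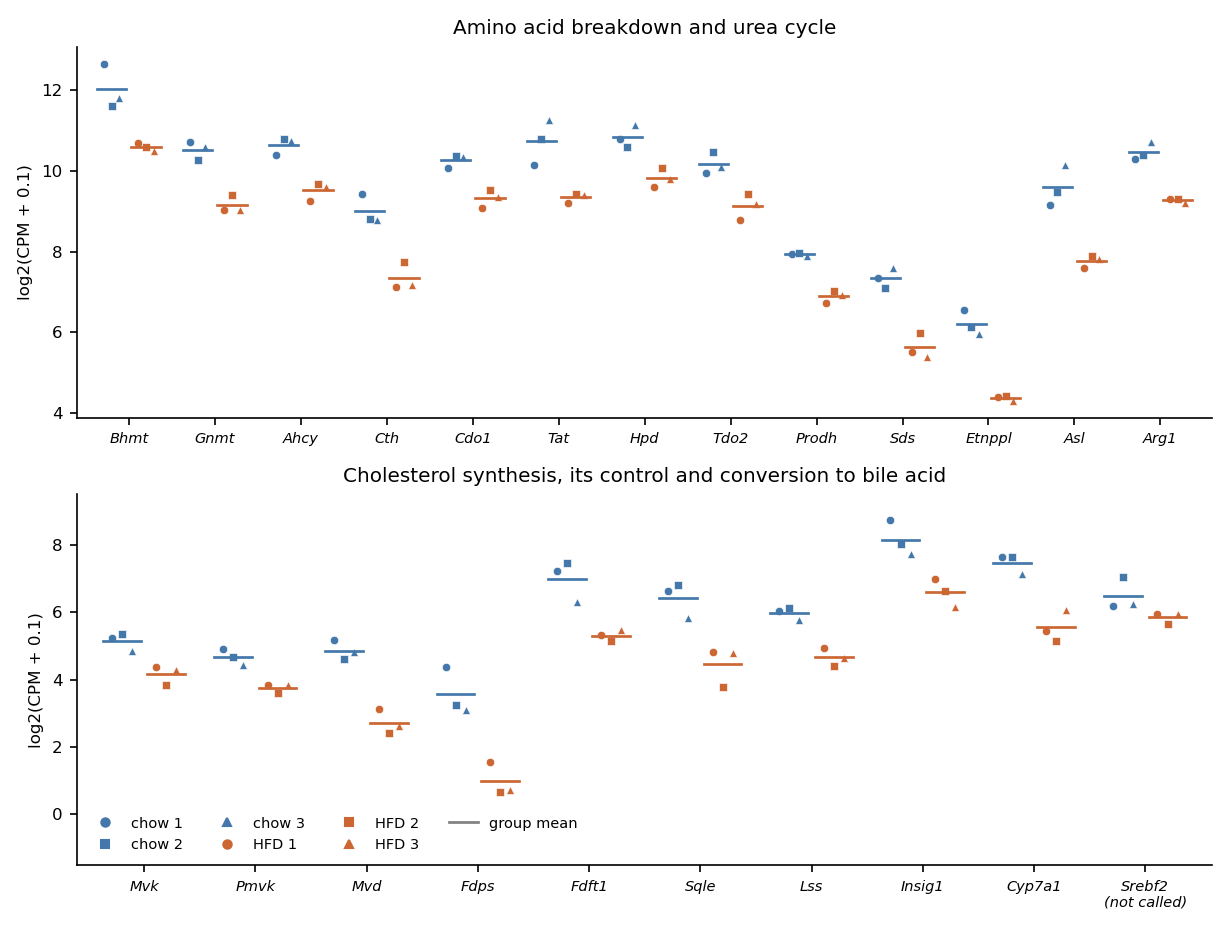
Levels (y axis, log2 of CPM + 0.1) in each of the 6 libraries, with bars for group means. The top panel shows genes for amino acid breakdown and the urea cycle, and Etnppl, which is in neither list. The bottom panel shows genes for cholesterol. Genes outside the naming rule were chosen after their values were seen. In every gene shown except Srebf2 the difference was called, and in all of them the 3 HFD livers lie below the 3 chow livers.

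Of 21 genes for gluconeogenesis and glycogen 1 was called higher and 2 lower, with 0 called in every fit without a library. Over all genes tested 1.56% were called higher and 0.709% lower. The 2 lower calls belong to the glucose-6-phosphatase system, the last step of glucose release. Slc37a4, the carrier of glucose-6-phosphate, measured 193, 217 and 220.2 CPM in chow and 96.9, 91.9 and 104 CPM in HFD livers (log2 fold change -1.10 ± 0.13, edgeR adjusted p = 0.00475). G6pc, the phosphatase, measured 273, 283 and 220.2 CPM in chow and 128, 149.5 and 137 CPM in HFD livers (-0.91 ± 0.15, edgeR adjusted p = 0.0188). Pck2, the mitochondrial form of the enzyme that starts gluconeogenesis, was higher, with 5.67, 6.57 and 6.52 CPM in chow and 15.1, 13.4 and 12.8 CPM in HFD livers (1.14 ± 0.16, edgeR adjusted p = 0.00991). The cytosolic Pck1 measured 1156, 3694 and 3021 CPM in chow and 1065, 807 and 1597 CPM in HFD livers (edgeR adjusted p = 0.261). Pck2 was thus higher and Pck1 lay lower without passing; the difference between them was not tested. Slc37a4 lost its call without HFD 1 (edgeR adjusted p = 0.0530), Pck2 without HFD 1 (edgeR adjusted p = 0.0738) and G6pc without chow 2, HFD 1, HFD 2 or HFD 3 (edgeR adjusted p up to 0.144). Pck1 was called without chow 1 (edgeR adjusted p = 0.0218).

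Of 85 genes in the lists of P450s and of conjugating enzymes, which clear drugs and other foreign compounds and hold some of their receptors, 9 were called lower and 1 higher, while 0.709% of all genes tested were called lower. The 9 include 2 receptors, Ahr among them. Cyp3a59 measured 47.3, 59.5 and 49.3 CPM in chow and 11, 16.7 and 8.95 CPM in HFD livers and was called in all fits (-2.09 ± 0.23, edgeR adjusted p = 0.00371). Its relative Cyp3a25 measured 598, 714 and 594 CPM in chow and 164, 268 and 173 CPM in HFD livers (-1.66 ± 0.22, edgeR adjusted p = 0.00749), with no call without HFD 1 (edgeR adjusted p = 0.0640). Cyp3a11, a main drug-oxidising member of that family, measured 5602, 1383 and 1853 CPM in chow and 211, 432 and 309.6 CPM in HFD livers. Its chow livers ranged widely and it did not pass (edgeR adjusted p = 0.0523), but was called without chow 1 or chow 2 (edgeR adjusted p = 0.00585 and 0.0379). Ahr, the receptor for aromatic pollutants, was lower, at -0.78 ± 0.14 (edgeR adjusted p = 0.0233) and lost its call without chow 2, HFD 1, HFD 2 or HFD 3 (edgeR adjusted p up to 0.148). Ugt1a5, a glucuronosyltransferase that shares exons with its neighbours, measured 13.9, 12.5 and 8.15 CPM in chow and 2.95, 2.78 and 2.01 CPM in HFD livers (-2.16 ± 0.27, edgeR adjusted p = 0.00570) in all fits. Cyp2d40 was the exception on the higher side, with 59.5, 70.7 and 73.9 CPM in chow and 159, 120.2 and 139 CPM in HFD livers (1.04 ± 0.15, edgeR adjusted p = 0.0108), and lost its call without HFD 1 or HFD 3 (edgeR adjusted p = 0.0714 and 0.0549). The number called was 21, 5 and 20 without chow 1, 2 and 3 and 2, 5 and 3 without HFD 1, 2 and 3.

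In retinoid metabolism 3 of 24 genes were called, 1 higher and 2 lower, beside 1.56% higher and 0.709% lower over all genes tested. The number was 2, 1 and 1 without chow 1, 2 and 3 and 0, 0 and 2 without HFD 1, 2 and 3. Cyp26a1, the enzyme that destroys retinoic acid and is itself induced by it, measured 41.8, 34.5 and 49.0 CPM in chow and 5.87, 7.37 and 1.60 CPM in HFD livers. Rdh16, a retinol dehydrogenase, measured 71.1, 92.9 and 72.8 CPM in chow and 18.4, 27.1 and 41.8 CPM in HFD livers. Both were lower in HFD livers, without overlap (-3.08 ± 0.52 and -1.44 ± 0.28; edgeR adjusted p = 0.0401 and 0.0440). Cyp26a1 lost its call without chow 1, chow 2, chow 3, HFD 1 or HFD 2 (edgeR adjusted p up to 0.148), and Rdh16 without chow 1, chow 2, chow 3, HFD 1 or HFD 2 (edgeR adjusted p up to 0.163).

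The circadian clock is a loop in which BMAL1 (encoded by Arntl) and CLOCK switch on Per and Cry genes, whose proteins shut them off, while REV-ERB and ROR receptors control Arntl; Dbp, Tef and Noct are outputs. The sources used here do not give the hour of surgery or collection in either group. Of the 19 core genes 4 were called, and of 22 outputs 4, all of them lower, beside 0.709% lower over all genes tested. The median log2 fold changes were -0.50 and -0.44, beside -0.02 over all genes tested. Over both lists the number called was 11, 6 and 9 without chow 1, 2 and 3 and 1, 3 and 4 without HFD 1, 2 and 3.

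The 4 core genes that fell encode repressors of BMAL1 and CLOCK. Per3 measured 16.7, 36.9 and 18.1 CPM in chow and 3.17, 3.02 and 4.73 CPM in HFD livers. Ciart, a repressor of the same activators, measured 3.57, 15.8 and 8.02 CPM in chow and 0.193, 0.574 and 0.650 CPM in HFD livers. Dbp, the output factor most closely tied to them, measured 13.3, 19 and 8.18 CPM in chow and 2.45, 2.33 and 1.74 CPM in HFD livers. Chow 2 was the highest library for all 3 genes, and no HFD liver reached the lowest chow liver. The log2 fold changes were -2.72 ± 0.35, -4.27 ± 0.66 and -2.63 ± 0.32 (edgeR adjusted p = 0.00979, 0.0207 and 0.00570). Dbp was called in all fits, Per3 was not without HFD 1 (edgeR adjusted p = 0.0702) and Ciart was not without chow 3, HFD 1, HFD 2 or HFD 3 (edgeR adjusted p up to 0.0973). Cry2 measured 26.4, 39.0 and 30.7 CPM in chow and 17.6, 18.9 and 15.5 CPM in HFD livers, and Bhlhe40 105, 90.2 and 80.2 CPM in chow and 56.6, 41.2 and 45.5 CPM in HFD livers. Their groups did not overlap (-0.89 ± 0.17 and -0.94 ± 0.16; edgeR adjusted p = 0.0309 and 0.0214). Cry2 lost its call without chow 2, HFD 1, HFD 2 or HFD 3 (edgeR adjusted p up to 0.152) and Bhlhe40 without chow 2, HFD 1, HFD 2 or HFD 3 (edgeR adjusted p up to 0.113). The outputs Noct, a deadenylase-like phosphatase, Tef and Coq10b were lower, at log2 fold changes -1.36, -1.65 and -0.89 (edgeR adjusted p = 0.00925, 0.0288 and 0.0280). Noct lost its call without HFD 1 (edgeR adjusted p = 0.0656), Tef without HFD 1, HFD 2 or HFD 3 (edgeR adjusted p up to 0.148) and Coq10b without chow 2, HFD 1, HFD 2 or HFD 3 (edgeR adjusted p up to 0.115).

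The activators lay the other way without passing. Arntl measured 17.1, 11.5 and 9.90 CPM in chow and 23.8, 28.0 and 22.2 CPM in HFD livers, with each HFD liver above each chow liver (0.94 ± 0.21, edgeR adjusted p = 0.0574), and was called without chow 1 (edgeR adjusted p = 0.00713). Clock measured 50.7, 38.8 and 42.8 CPM in chow and 55.9, 59.0 and 54.8 CPM in HFD livers (edgeR adjusted p = 0.251). Npas2, its paralogue, measured 6.77, 0.366 and 1.48 CPM in chow and 8.11, 11.7 and 4.08 CPM in HFD livers (edgeR adjusted p = 0.552), and its groups overlapped. Per2 measured 37.1, 27.6 and 54.5 CPM in chow and 15.9, 14.6 and 22.6 CPM in HFD livers, without overlap (edgeR adjusted p = 0.0722). Per1 measured 22.4, 79.8 and 58.3 CPM in chow and 23.7, 9.70 and 48.8 CPM in HFD livers, with overlap (edgeR adjusted p = 0.601). Nr1d1, the REV-ERB alpha gene, was scattered in both groups, at 60.5, 14.5 and 25.0 CPM in chow and 56.8, 18.2 and 3.55 CPM in HFD livers (edgeR adjusted p = 0.921). Nr1d2 measured 46.0, 58.4 and 36.5 CPM in chow and 26.5, 28.0 and 19.7 CPM in HFD livers (edgeR adjusted p = 0.0527) and was called without chow 3 (edgeR adjusted p = 0.0192). Bhlhe41 measured 3.08, 1.41 and 4.98 CPM in chow and 0.634, 0.695 and 0.857 CPM in HFD livers (edgeR adjusted p = 0.0575) and was called without chow 2 (edgeR adjusted p = 0.0322). The receptor gene Rora had a log2 fold change of 0.07, Cry1 0.09, the kinases Csnk1d and Csnk1e 0.23 and -0.50, and the ubiquitin ligase subunit Fbxl21 0.23 (edgeR adjusted p = 0.890, 0.906, 0.461, 0.212 and 0.715).

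The window of the Ciart promoter (chr3:95882209-95882338, minus strand; GRCm38.p6, from RefSeq, 110 bases before the start to 20 after it) is shown because it holds 2 copies of CACGTG, the E-box core that BMAL1 and CLOCK bind, in capitals with a CCAAT box. The E-box search was added after the values were seen. Of 7 called clock list genes with RefSeq promoters 3 (42.9%) held CACGTG, of 27 clock list genes that were not called 6 (22.2%), and of 11117 genes tested 1270 (11.4%). Among genes with a single promoter the shares were 33.3% of 6, 21.1% of 19 and 10.1% of 8874. No comparison was made at these numbers.
Ciart: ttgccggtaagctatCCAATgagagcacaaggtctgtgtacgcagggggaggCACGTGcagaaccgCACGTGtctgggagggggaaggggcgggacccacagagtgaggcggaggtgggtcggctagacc

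**Figure D4:**
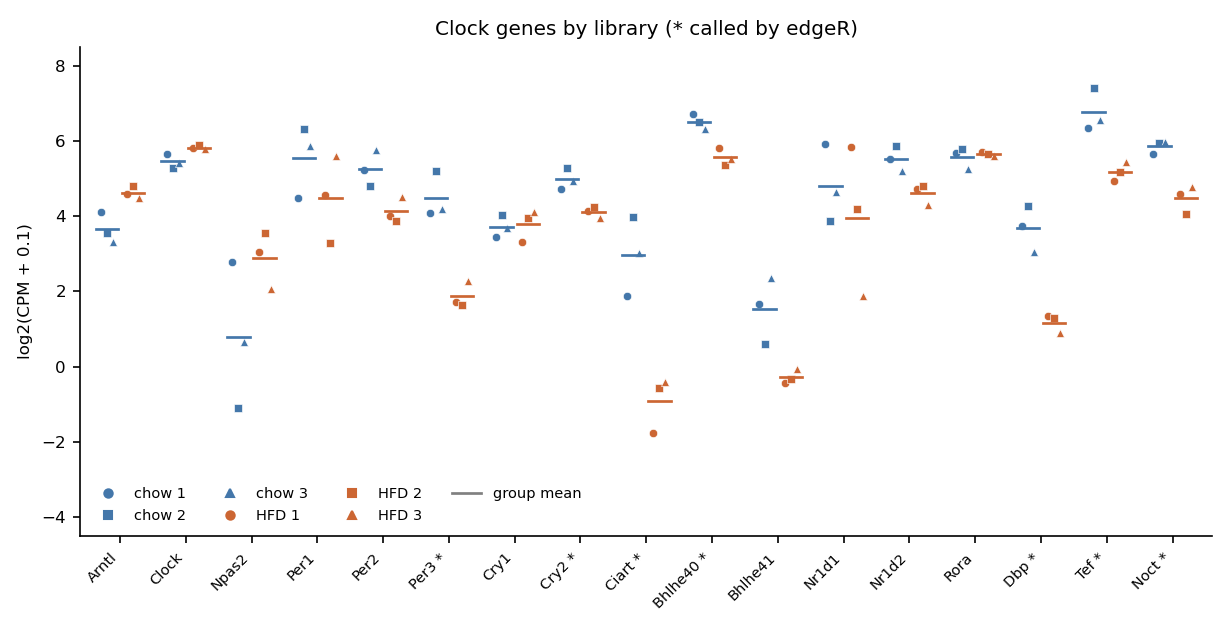
Levels (y axis, log2 of CPM + 0.1) of 14 of the 19 core clock genes and 3 outputs in each of the 6 libraries, with bars for group means and asterisks for genes called by edgeR. Per3, Ciart, Dbp and Tef are low in all 3 HFD livers, Arntl is higher in them, and Nr1d1 and Per1 spread across both groups.

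Few genes for handling fat passed. Over lists for lipogenesis, fatty acid oxidation, uptake, lipid droplets and lipoproteins, 1 of 132 genes was called (0.758%, beside 2.27% of all genes). DESeq2 called 7 and limma-voom 1, and 22 had an unadjusted p under 0.05. The number called was 5, 1 and 4 without chow 1, 2 and 3 and 0, 0 and 0 without HFD 1, 2 and 3. The gene called with all libraries was Lpl, lipoprotein lipase, which adult hepatocytes make little of. It measured 43.3, 30.8 and 29.6 CPM in chow and 76.0, 67.4 and 54.6 CPM in HFD livers (0.93 ± 0.19, edgeR adjusted p = 0.0390) and lost its call without chow 2, chow 3, HFD 1, HFD 2 or HFD 3 (edgeR adjusted p up to 0.194). Cd36, the fatty acid receptor that the study is about, measured 22.2, 74.2 and 73.1 CPM in chow and 97.9, 109.8 and 33.5 CPM in HFD livers and did not pass (0.51 ± 0.61, edgeR adjusted p = 0.764). Chow 1 and HFD 3 were low and the groups overlapped. Plin2, the coat protein of lipid droplets, measured 293, 362 and 256 CPM in chow and 597, 349 and 1047 CPM in HFD livers (1.13 ± 0.37, edgeR adjusted p = 0.203), with HFD 3 highest and HFD 2 inside the chow range. Thrsp, a regulator of lipogenesis, measured 471, 27.3 and 28.0 CPM in chow and 14.5, 9.31 and 4.28 CPM in HFD livers (edgeR adjusted p = 0.254), with chow 1 more than 16-fold above every other library. Chow 1 was the highest library for 18 of the 26 lipogenic genes. Fabp1, the hepatocyte fatty acid binding protein, measured 959, 820.3 and 458 CPM in chow and 1617, 812 and 1891 CPM in HFD livers (edgeR adjusted p = 0.276).

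Of 89 genes of the unfolded protein response, the integrated stress response and the heat shock response 1 was called (1.12%, beside 2.27% of all genes). This was Cth, given above. The number called was 4, 1 and 4 without chow 1, 2 and 3 and 0, 1 and 0 without HFD 1, 2 and 3. In the unfolded protein response list chow 3 was the highest library for 30 of 38 genes; the median log2 fold change was -0.07 with all libraries and 0.24 without chow 3, with 3 genes then called higher. Scaling by library size alone gave 0.11. Ern1, the gene of the endoplasmic reticulum sensor IRE1, measured 103, 70.9 and 64.8 CPM in chow and 91.7, 87.0 and 64.2 CPM in HFD livers (0.03 ± 0.21, edgeR adjusted p = 0.977). Xbp1, whose transcript that sensor splices, measured 352, 226 and 308 CPM in chow and 371, 385 and 300.3 CPM in HFD livers (0.26 ± 0.20, edgeR adjusted p = 0.602); gene counts do not show splicing. For both genes the groups overlapped. DESeq2 called 4 of the 89 and limma-voom 1, and 11 had an unadjusted p under 0.05.

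Ribosome and mitochondrial lists held 0 called genes of 174 by edgeR, 1 by DESeq2 and 0 by limma-voom, with 28 at an unadjusted p under 0.05. In 70 of the 174 genes the groups did not overlap (40.2%, beside 21.8% of all genes). All 47 nuclear-encoded respiratory chain genes lay below 0, with a median log2 fold change of -0.23, which scaling by library size alone moved to -0.08. All 51 cytosolic ribosomal protein genes lay below 0 as well, with a median log2 fold change of -0.22. Scaling by library size alone moved that median to -0.06 and put some of the 51 above 0, while the median of all genes moved to 0.13. Transcripts of the mitochondrial genome made up 9.96%, 7.46% and 7.88% of the counts in chow and 6.56%, 8.43% and 6.6% in HFD livers (exact permutation test, two-sided p = 0.3, where 3 against 3 cannot go below 0.1).

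Genes for growth signals rarely passed. Of 34 genes for HGF, EGF, FGF and TGFB signalling 0 were called by edgeR, 2 by DESeq2 and 0 by limma-voom, with 6 at an unadjusted p under 0.05. Of 27 immediate early genes the same tools called 0, 4 and 0, with 9 at that unadjusted p. In the growth hormone and IGF list of 24, Stat5a, a transducer of growth hormone, and Igfbp2, an IGF binding protein, were higher. Over all genes tested 1.56% were called higher. Stat5a measured 13.4, 17.8 and 12.9 CPM in chow and 26.5, 24.6 and 25.9 CPM in HFD livers. Igfbp2 measured 336, 289 and 280.4 CPM in chow and 467, 570.2 and 562 CPM in HFD livers. Neither gene's groups overlapped (0.81 ± 0.15 and 0.82 ± 0.16; edgeR adjusted p = 0.0333 and 0.0360). Stat5a lost its call without chow 3, HFD 1, HFD 2 or HFD 3 (edgeR adjusted p up to 0.160), and Igfbp2 without chow 2, chow 3, HFD 1, HFD 2 or HFD 3 (edgeR adjusted p up to 0.153). Mup17, a major urinary protein gene with near-identical copies whose reads may be shared, measured 656, 409.6 and 488 CPM in chow and 1192, 1296 and 1849 CPM in HFD livers (1.48 ± 0.24, edgeR adjusted p = 0.0172) and lost its call without chow 2, HFD 1, HFD 2 or HFD 3 (edgeR adjusted p up to 0.0817).

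All 40 type I interferon-stimulated genes had log2 fold changes above 0 under each scaling tried, with a median of 0.99, and 5 were called. With TMM scaling 7461 of all 15792 genes lay above 0, and 1.56% of all genes were called higher. Of 33 genes inducible by interferon gamma 3 were called. HFD 3 was the highest library for 31 of the 40. Irf9, the DNA-binding subunit of the factor that type I interferon activates, measured 31.0, 26.8 and 27.2 CPM in chow and 48.2, 43.7 and 51.1 CPM in HFD livers. Rsad2, the antiviral enzyme viperin, measured 4.11, 1.62 and 2.43 CPM in chow and 11.2, 8.82 and 15.2 CPM in HFD livers. Tap1, the peptide pump of antigen presentation, measured 26.0, 18.8 and 19.3 CPM in chow and 38.8, 35.2 and 45.9 CPM in HFD livers. These 3 and Cxcl10, a chemokine induced by interferon, rose by 0.75, 2.11, 0.90 and 2.36 (edgeR adjusted p = 0.0185, 0.0214, 0.0286 and 0.0247). None held in all fits. Irf9 lost its call without chow 2, HFD 1, HFD 2 or HFD 3 (edgeR adjusted p up to 0.106), and Rsad2 without chow 2, chow 3, HFD 1 or HFD 3 (edgeR adjusted p up to 0.102). Tap1 lost its call without chow 2, chow 3, HFD 1, HFD 2 or HFD 3 (edgeR adjusted p up to 0.128), and Cxcl10 without chow 2, chow 3, HFD 1 or HFD 3 (edgeR adjusted p up to 0.133). Over both lists 8 of 73 genes were called with all libraries (11%, beside 2.27% of all genes). The number was 28, 0 and 2 without chow 1, 2 and 3 and 0, 2 and 0 without HFD 1, 2 and 3. With scaling by library size alone 13 were called.

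Acute phase genes had a median log2 fold change of -0.71, with 0 of 27 called by edgeR, 1 by DESeq2 and 0 by limma-voom, and 3 at an unadjusted p under 0.05. The shift rested on chow 3: without it the median was -0.01, with 0 called. Without chow 1 it was -1.02, with 4 called lower, and limma-voom gave -0.38 with all libraries. The chow livers spanned the HFD livers. Chow 3 was the highest library for 26 of the 27 genes and chow 1 the lowest for 21. The summed level was 45400, 84200 and 172000 CPM in chow 1, 2 and 3 and 69900, 78300 and 73500 CPM in HFD 1, 2 and 3. Hp, haptoglobin, measured 6520.0, 12986 and 23684 CPM in chow and 8844, 10848 and 10981 CPM in HFD livers (edgeR adjusted p = 0.636). Orm3, an orosomucoid, measured 16.6, 17.4 and 91.7 CPM in chow and 5.32, 10.8 and 12.1 CPM in HFD livers (edgeR adjusted p = 0.303). The same chow 3 liver was low in replication genes and in albumin.

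**Figure D5:**
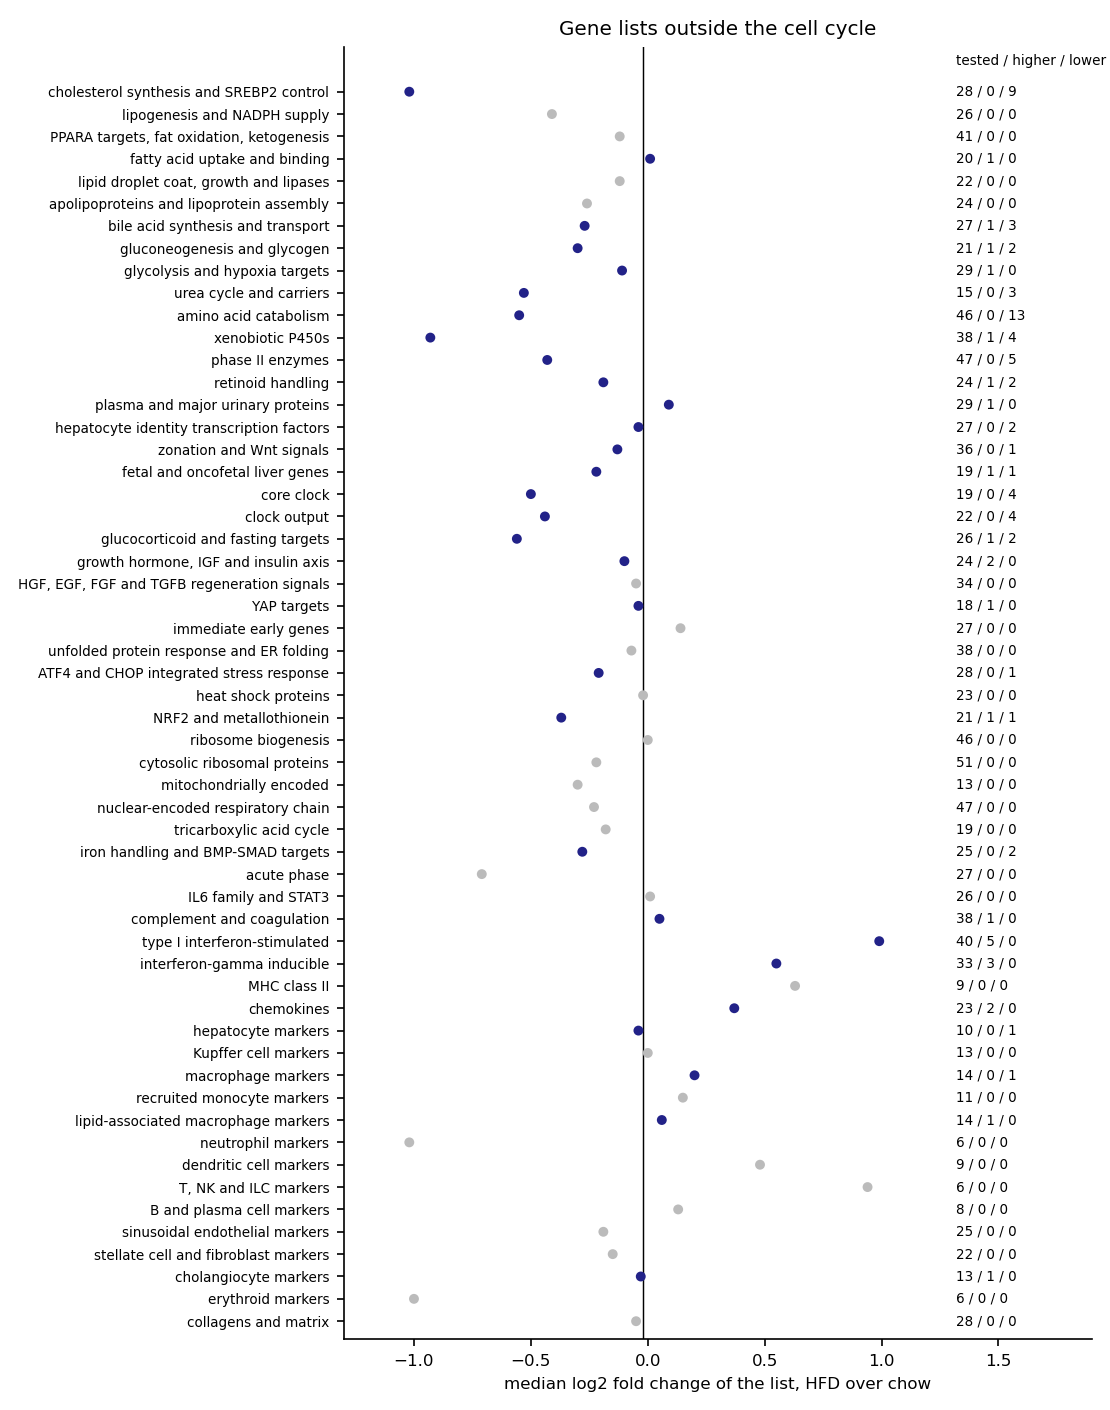
Median log2 fold change, HFD over chow (x axis), of each gene list outside the cell cycle, blue where at least 1 member was called and grey where 0 were; the vertical line is the median of all genes tested, -0.02, and figures at the right count genes tested, higher and lower. The cholesterol, P450, amino acid and clock lists lie to the left with called members, and the type I interferon list to the right at 0.99.

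Markers of cells other than hepatocytes showed few differences. In 13 lists, for Kupffer cells, other macrophages, monocytes, lipid-associated macrophages, neutrophils, dendritic cells, T and NK cells, B cells, endothelium, stellate cells, cholangiocytes, erythroid cells and matrix, 3 of 166 genes were called (1.81%, beside 2.27% of all genes), 2 higher and 1 lower. The higher calls were Lpl, given above, and Cdh1. Cdh1, an epithelial cadherin, measured 56.4, 38.2 and 25.6 CPM in chow and 116, 109 and 85.8 CPM in HFD livers (1.37 ± 0.27, edgeR adjusted p = 0.0449). It lost its call without chow 2, HFD 1, HFD 2 or HFD 3 (edgeR adjusted p up to 0.192). The 3 macrophage genes that follow were not called. Csf1r, a growth factor receptor of these cells, measured 18.5, 23.6 and 32.6 CPM in chow and 28.9, 25.6 and 41.3 CPM in HFD livers (edgeR adjusted p = 0.549). Adgre1, which encodes F4/80, measured 3.03, 7.33 and 6.67 CPM in chow and 7.25, 7.83 and 9.60 CPM in HFD livers (edgeR adjusted p = 0.489). C1qb, a complement subunit, measured 16.7, 27.5 and 34.6 CPM in chow and 29.2, 22.6 and 47.1 CPM in HFD livers (edgeR adjusted p = 0.717). Each had overlapping groups. Cd5l, a Kupffer cell protein, measured 27.7, 62.5 and 80.1 CPM in chow and 76.8, 62.0 and 115 CPM in HFD livers (edgeR adjusted p = 0.582). The number called over the 13 lists was 10, 0 and 2 without chow 1, 2 and 3 and 0, 0 and 1 without HFD 1, 2 and 3, 14 by DESeq2 and 3 by limma-voom. The list medians farthest from 0 came from lists of 6 tested genes each, at -1.02 for neutrophils, -1.0 for erythroid cells and 0.94 for T and NK cells. In these lists edgeR and limma-voom called 0 genes, while DESeq2 called 1 neutrophil and 4 erythroid genes lower; 1, 4 and 0 genes had an unadjusted p under 0.05. Chow 3 was the highest library for all 6 neutrophil and 5 of the 6 erythroid genes, and without it the medians were -0.29 and -0.56. The cells in which the mitosis genes were transcribed cannot be read from bulk counts.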

How the data were processed

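Whole-liver RNA of the 3 HFD and 3 chow libraries was captured with polyT, per the labels' protocols. The deposited values are whole-number read counts per Ensembl gene, made by the authors without normalization. Tools named in the submitters' processing notes are HISAT2 2.2.1, Trim Galore 0.6.1, DESeq2 and featureCounts 2.0.2, with the build GRCm38 (mm10). The sources used here do not give settings, strand use or the annotation release. Each group has 1 record in the labels, so table columns were assigned to groups by their letters, and control columns of the diet table were taken as chow. The 3 columns of a group were taken as 3 livers, which the labels do not state column by column. Symbols and 1-based GRCm38 coordinates came from GENCODE M21, which matched 55227 of 55487 identifiers.

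Genes with at least 10 counts in 3 or more libraries were fitted with edgeR 4.0.16 in R 4.3.3 (quasi-likelihood test, robust spread, TMM scaling), with Benjamini-Hochberg adjustment over all 15792 genes, with a threshold of 0.05. CPM were computed on TMM-scaled library sizes. Errors of log2 fold changes are SEs. The procedure was tested on simulated counts. The 14 alternatives included DESeq2 1.42.0 and limma-voom (limma 3.58.1), and 6 fits without 1 library each. Libraries of a group differed beyond sampling noise (chi-square per degree of freedom 30.0 to 353 over genes). This cannot tell separate livers from separate preparations of 1 liver. Each library was counted as a replicate because the design text describes 3 individuals per group. Same-numbered columns did not deviate together (correlations 0.02, -0.11 and 0.00), so libraries were not paired.

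The 71 gene lists and the members described were chosen with earlier results of these data known. Lists are described by counts and medians only. Named genes were Cd36, Ern1, Xbp1, Ccnd1, Mki67 and Ccnb1; the 15 higher and 15 lower genes with the largest change among stable calls at a mean of at least 3 log2 CPM (6 lower qualified); all core clock genes; and per list up to 4 called genes by smallest p and 3 others. A few genes under this rule are not reported here. Other names were chosen after their values were seen. Without strand information, levels are uncertain where another gene lies antisense to the exons, as for Ccna2 (12.5% of exon length), Ube2c (22.8%), Kif20a (29.3%), Ccnd1 (23.4%), Sds (29.6%), Tuba4a (37.3%), Dbp (18%), Ugt1a5 (17.9%) and Bhlhe41 (19%), and among near-identical family members such as Mup17, Cyp3a59 and the tubulins.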

Additional observations from a re-analysis of the deposited data

How the results depend on the processing

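The count of called genes was 359, with 247 higher and 112 lower. Upper-quartile scaling, limma-voom, filterByExpr and a fit without robust spread each kept all 3 counts within 1.5 times. Scaling by library size alone gave 391 calls with 58 lower. DESeq2 gave 926 calls, 522 higher and 404 lower, among them all 359. Without the filter on low counts 672 genes were called, 399 higher and 273 lower; 3 of these lay below the filter and 321 were among the 359. With the column number as a replicate block 207 genes were called, 151 higher and 56 lower, of which 192 were among the 359; the numbers share no stated source and their deviations did not correlate. Without 1 library the calls ranged from 73 to 671, the higher from 64 to 416 and the lower from 9 to 255, lowest without HFD 1 and highest without chow 1; 72 of the 73 were among the 359. The cause of these changes was not tested. Of the alternative values for named genes 297 lost a call, 13 gained one, 1518 did neither and 0 turned a called direction. The median of a list was set against the SD of the list's mean level between chow livers. It moved by at least that SD in 73 alternatives and by less in 708. The spread between HFD livers was not used. DESeq2 called 27 of the 61 amino acid and urea cycle genes, 34 of the 85 for drug metabolism, 17 of the 41 for the clock and 27 of the 73 for interferon. Genes below 10 counts in 4 or more of the 6 libraries were not tested, and groups of 3 were not searched for outlying libraries.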

Other observations

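Several genes outside the lists, chosen after their values were seen, separated the diet groups as clearly as the mitosis genes. One was Gm42047, a long intergenic non-coding RNA (ENSMUSG00000110631, chr8:121833247-121841178, plus strand, GRCm38, with 0% of its exon length overlapped on the other strand in GENCODE M21). It measured 37.6, 55.6 and 37.1 CPM in chow and 358, 454 and 688 CPM in HFD livers (log2 fold change 3.52 ± 0.29, edgeR adjusted p = 0.00101). Inava, an adaptor of innate immune signalling and cell junctions, and Lockd, a non-coding RNA beside Cdkn1b, had few counts in chow livers. Inava measured 0.154, 0.157 and 0.307 CPM in chow and 4.77, 5.14 and 3.43 CPM in HFD livers. Lockd measured 0.308, 0.0785 and 0.246 CPM in chow and 3.92, 4.02 and 4.93 CPM in HFD livers (4.43 ± 0.40 and 4.33 ± 0.45; edgeR adjusted p = 0.00101 and 0.00212). The exons of Inava overlap another gene on the opposite strand over 32% of their length. Serpinb8, an intracellular protease inhibitor, measured 2.69, 2.30 and 1.88 CPM in chow and 26.0, 16.6 and 24.5 CPM in HFD livers. Dnaic1, a dynein chain of motile cilia, measured 0.770, 1.80 and 1.08 CPM in chow and 8.93, 11.8 and 13.6 CPM in HFD livers (3.28 ± 0.23 and 3.23 ± 0.34; edgeR adjusted p = 0.000492 and 0.00212). Map4k4, a kinase upstream of JNK, measured 11.2, 10.7 and 12.1 CPM in chow and 56.5, 40.5 and 44.3 CPM in HFD livers, with little spread within either group (2.06 ± 0.16, edgeR adjusted p = 0.000668). All 6 were called in each fit without 1 library.

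Hormone and chromatin genes outside the lists also passed, and were likewise chosen after their values were seen. Dio1, the deiodinase that makes active thyroid hormone, measured 63.1, 88.0 and 47.1 CPM in chow and 184, 187 and 234 CPM in HFD livers (1.61 ± 0.23, edgeR adjusted p = 0.00991). Mtnr1a, a melatonin receptor, measured 2.51, 4.24 and 2.74 CPM in chow and 9.73, 10.6 and 18.4 CPM in HFD livers (2.03 ± 0.31, edgeR adjusted p = 0.0134). Dio1 lost its call without HFD 1 (edgeR adjusted p = 0.0530) and Mtnr1a without HFD 3 (edgeR adjusted p = 0.050). H2afz, a histone variant whose transcript is polyadenylated, measured 50.1, 46.6 and 38.6 CPM in chow and 136, 120.2 and 135 CPM in HFD livers and was called in all fits (1.53 ± 0.14, edgeR adjusted p = 0.00112). On the lower side Snhg11, a small nucleolar RNA host gene, measured 26.0, 16.6 and 19.1 CPM in chow and 5.43, 4.89 and 5.11 CPM in HFD livers (-2.0 ± 0.20, edgeR adjusted p = 0.00154). Cyp17a1, a steroid hydroxylase, measured 25.2, 18.6 and 29.7 CPM in chow and 5.29, 8.19 and 4.28 CPM in HFD livers (-2.05 ± 0.27, edgeR adjusted p = 0.00791), and lost its call without HFD 1 (edgeR adjusted p = 0.0673).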
